A study of Mus musculus with 3 samples.

Results

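The genes described here are 38 mouse orthologs or close relatives of genes mutated in inherited ataxia, other than ion channel genes. They were taken by name from the 32531 gene rows of 3 count tables, and all 38 were found. The tables come from translating ribosome affinity purification (TRAP), in which tagged ribosomes are captured on antibody-coated beads and the RNA they carry is sequenced. All 3 libraries were immunopurified from the deep nuclei, which send the output of the cerebellum, of adult mice of the line Htr6-TRAP NIDA113 on the C57BL/6J background, whose transgene joins EGFP to ribosomal protein L10a (Htr6-EGFP/Rpl10a). The 3 libraries form 1 group, every library carries the transgene, and unpurified tissue was not analysed here, so each level is an abundance in purified RNA. The labels give neither the promoter fragment that drives the transgene nor the age in weeks. They also do not say whether the replicates came from separate mice, so the spread between libraries may be partly technical.

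The inherited ataxias are disorders of coordination in which the cerebellum, its Purkinje cells and often its output nuclei are damaged. Their genes work in unrelated parts of the cell. In the polyglutamine ataxias a run of CAG codons in the coding sequence lengthens, in others a repeat expands in an intron or another noncoding part, and many recessive forms arise from loss of a DNA repair enzyme, a mitochondrial protease or a vitamin E carrier. Reelin signalling, by which a secreted protein steers migrating neurons, is also needed for the cerebellum to form its layers.

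Glutamine codons of 5 polyglutamine genes are shown because a run of them is what lengthens in this class of disease, and the mouse genes differ in the runs they hold. Each line below gives the longest run of glutamine codons in the longest coding transcript of GENCODE release M21 (mm10), with CAG and CAA codons of the run in capitals and 15 coding bases on each side in lower case. The run need not be the tract that expands in patients, runs of 3 codons also occur in genes outside the class such as Dab1 and Atm, and counts of reads per gene hold nothing on its length.
Atxn1: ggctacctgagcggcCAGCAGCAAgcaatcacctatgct
Atxn2: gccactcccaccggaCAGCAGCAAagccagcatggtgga
Atxn3: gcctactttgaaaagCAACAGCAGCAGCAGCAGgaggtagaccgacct
Atxn7: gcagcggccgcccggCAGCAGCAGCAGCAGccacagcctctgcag
Tbp: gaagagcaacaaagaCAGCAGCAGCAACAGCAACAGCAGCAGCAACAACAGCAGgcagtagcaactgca

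Among them Tbp has the longest run, with 13 glutamine codons (9 CAG and 4 CAA) at chr17:15504391-15504429 on the plus strand. The run of Atxn3 has 6 codons (chr12:101926563-101926580, minus strand) and that of Atxn7 has 5 (chr14:14013156-14013170, plus strand). The runs of Atxn1 (chr13:45567080-45567088, minus strand) and Atxn2 (chr5:121810946-121810954, plus strand) have 3 codons each. All 5 runs lie in coding exons.

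The libraries held 7622010 to 8842058 counts assigned to genes, and a count of 0 allows a level of up to 0.340 to 0.397 CPM (counts scaled to a common library size, with 3 counts as the limit and counting error only). Htr6 had 0, 7 and 0 counts in replicates 1, 2 and 3, and Rpl10a, counted together with its tagged copy, had 641, 553 and 774. Glutamatergic markers of the deep nuclei were present, with Slc17a6 at 302 ± 80.2 CPM (SD, n = 3) and Spp1 at 128 ± 29.0 CPM, but the transcription factor genes Lhx9 and Lhx2 lay under 10 CPM. Summed over 5 such markers, the level was 368 to 539 CPM, against 2991 to 3628 CPM for 8 granule cell markers and 397 to 890 CPM for 4 markers of inhibitory neurons. The 7 Purkinje cell markers summed to 5644 to 7581 CPM, most of it from Itpr1, Rgs8 and Car8, while Skor2 and Pcp4 were at 7.3 and 0.34 CPM. The sum was 2883 to 3644 CPM for 5 oligodendrocyte markers, 2429 to 2790 CPM for 6 markers of astrocytes and Bergmann glia, 15.3 to 31.6 CPM for 5 microglial and 44.6 to 92.7 CPM for 4 vascular markers. Among the last 2 lists, C1qa, Aif1, Trem2 and Cldn5 had no count. In such bulk libraries, fewer cells of a type and less RNA per cell cannot be told apart, and the part of these cell types in the levels below was not tested.

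Most of the ataxia genes were measured well above the limit of detection, and their levels spanned more than 3 powers of 10. Of the 38, 27 had a mean of at least 10 CPM, against 25.1% of all gene rows and 58.2% of the 14036 genes with at least 10 counts. A mean of at least 100 CPM was reached by 13 of the 38, against 6.35% of all rows and 2067 of those 14036 genes. Their summed level was 6331, 6229 and 6394 CPM in replicates 1, 2 and 3. In the gene lists below, a count of genes at 10 or 100 CPM also refers to the mean over 3 libraries. On a scale per exon length, log2(RPKM + 1), the median over the 38 genes was 3.05 ± 0.23 (SD, n = 3), with 3.24, 2.79 and 3.12 in the 3 libraries. Over 12547 genes with at least 10 counts and a known exon length the median was 2.15, 2.13 and 2.16. The list was chosen with results of these data known, so this is a description of its members. Levels across the libraries were alike in order, with Spearman's rho of 0.930, 0.948 and 0.919 across the 38 genes. Across genes with at least 10 counts it was 0.761, 0.765 and 0.784. Pearson's r on log2(CPM + 1) was 0.916, 0.934 and 0.931, against 0.783, 0.785 and 0.805. The 38 were not filtered on counts and had a higher median level (51.4 against 15.1 CPM), so these coefficients do not compare like with like. Genes share libraries and are not independent replicates. The ataxia genes are long, with a median exon length of 6058 bases against 4715 for genes with at least 10 counts, and exon length and mean CPM had a Spearman's rho of 0.549 across the 38 and of 0.427 across all.

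**Figure D1:**
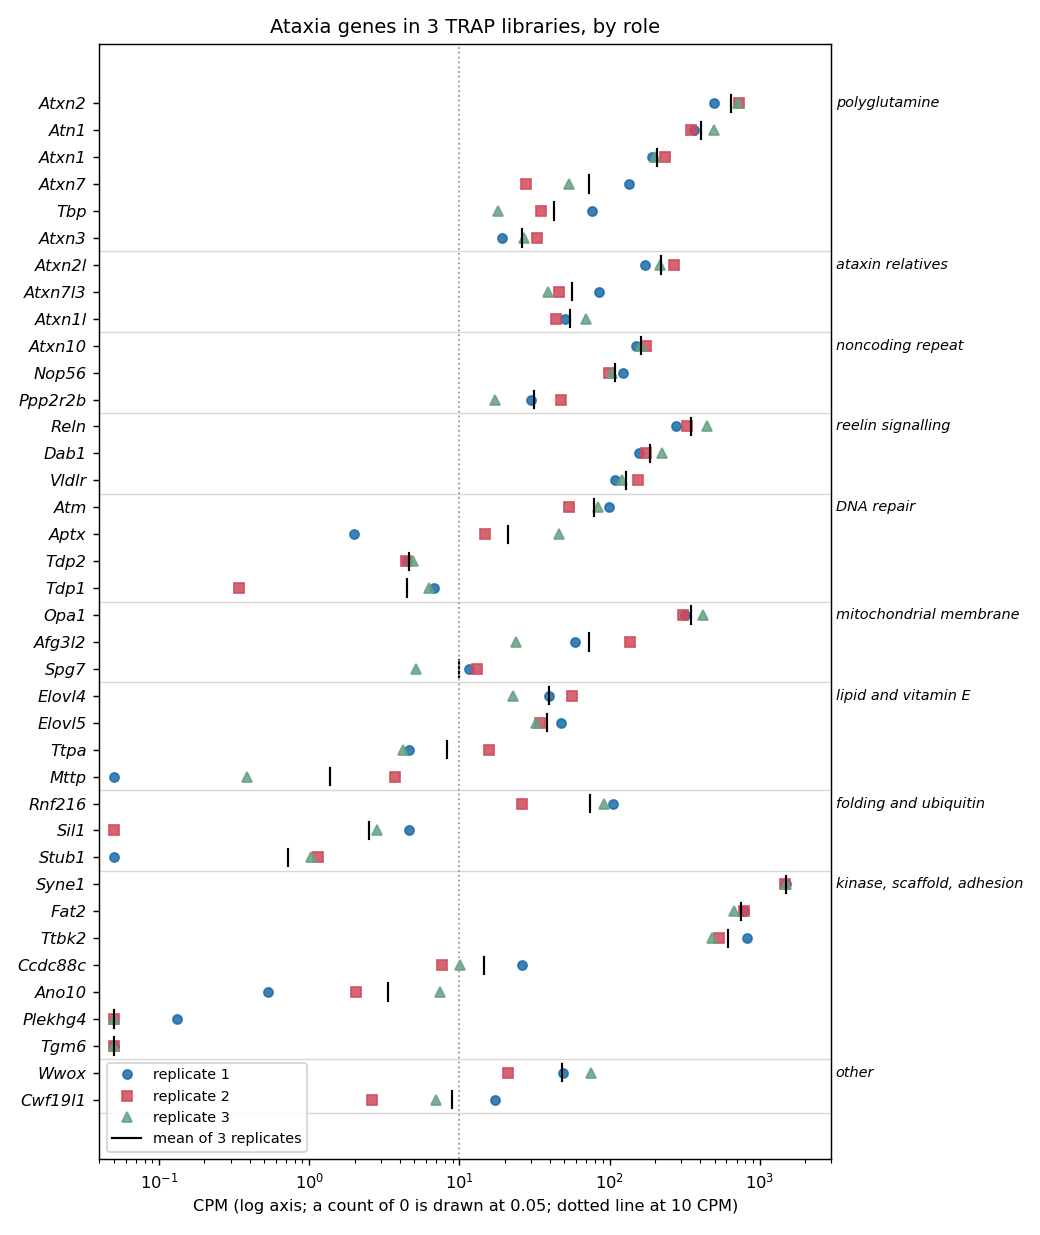
CPM of each of the 38 ataxia genes in replicates 1, 2 and 3 (points, log axis) with the mean of the 3 replicates (black bar), grouped by role and ordered by mean within a role. Syne1 and Fat2 are the highest with points that nearly coincide, whereas Aptx, Tdp1 and Ano10 spread widely and Tgm6 has no count in any replicate.

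In CPM, the polyglutamine genes fell into an abundant and a scarcer set. Atxn2, an RNA-binding protein that works with poly(A)-binding protein, was the highest of them in CPM at 497, 723 and 711 in replicates 1, 2 and 3 (644 ± 127 CPM; SD, n = 3), with replicate 1 the lowest. Atn1, atrophin-1, a transcriptional corepressor, had 364, 351 and 498 CPM (404 ± 81.4 CPM), with replicate 3 the highest. Atxn1, which represses transcription together with the protein Capicua, had 191, 232 and 201 CPM (208 ± 21.6 CPM) and differed little between libraries. Per exon length of the whole gene, Atn1 had 87.9 ± 17.7 RPKM, Atxn2 41.0 ± 8.1 RPKM and Atxn1 14.9 ± 1.6 RPKM. With the length of the longest coding transcript, a setting added after the data were seen, they had 91.2 ± 18.4, 144 ± 28.5 and 53.3 ± 5.5 RPKM, so that Atxn2 came first. In the annotation used, 86.4% of the 50-base stretches of the Atn1 transcript also occur in an annotated gene named Gm45234, so its count depends on the gene models used by the authors.

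The other 3 polyglutamine genes were lower in CPM and, except for Atxn3, uneven. Atxn7, a subunit of the histone-modifying SAGA complex, had 135, 27.9 and 54.0 CPM (72.5 ± 56.1 CPM; SD, n = 3), with replicate 1 the highest by 4.85 times over replicate 2. Tbp, the TATA-binding protein at the core of transcription initiation, had 75.7, 34.8 and 18.0 CPM (42.8 ± 29.7 CPM), again highest in replicate 1. Exons of Pdcd2 on the other strand cover 19.02% of the Tbp exons, and Pdcd2 itself had 270, 158 and 20 counts, so that both were highest in replicate 1 and lowest in replicate 3. The counting tool sets aside reads that fall on exons of 2 genes, as far as its gene models and strand setting, which are not given, make them overlap. Where the gene models leave the overlap out and strand is ignored, reads of such a pair cannot be told apart. Atxn3, a deubiquitinating enzyme, had 19.1, 32.7 and 27.0 CPM (26.2 ± 6.8 CPM), so the gene whose product trims ubiquitin chains was the scarcest of the 6 in CPM. Tbp was the lowest of them per exon length, at 3.2 ± 2.2 RPKM against 4.8 ± 1.3 RPKM for Atxn3.

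All 3 relatives of ataxin genes were present. Atxn2l, a paralog of Atxn2 found in stress granules, had 172, 270 and 218 CPM (220 ± 49.0 CPM; SD, n = 3). Atxn7l3, a subunit of the deubiquitinating part of SAGA, had 84.7, 45.9 and 38.8 CPM (56.5 ± 24.7 CPM). Atxn1l, which binds Capicua as Atxn1 does, had 50.2, 43.7 and 70.1 CPM (54.7 ± 13.7 CPM). Replicate 1 was the highest for Atxn7l3, as it was for Atxn7, and the lowest for Atxn2l, as it was for Atxn2. Atxn1l and Atxn1 differed, with Atxn1l highest in replicate 3 and Atxn1 in replicate 2. Of all tested genes, 35.2% were highest in replicate 1, and whether related genes share an order of libraries was not tested.

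Partners of these proteins were present throughout. Of 8 fixed partner genes, all had a mean of at least 10 CPM, with a median of 22.4 RPKM. They were led by Ube4b, a ubiquitin ligase that extends chains (75.7 ± 28.2 RPKM; SD, n = 3), the poly(A)-binding protein gene Pabpc1 (45.9 ± 13.7 RPKM) and Vcp, a segregase for ubiquitinated proteins (28.9 ± 5.7 RPKM). The splicing factor gene Rbm17, at 12.7 ± 10.8 RPKM, was among the lowest. Of 14 genes of the SAGA complex, 11 had at least 10 CPM. They were led by the deubiquitinase gene Usp22 (38.7 ± 11.5 RPKM), highest in replicate 3, and the acetyltransferase gene Kat2a, with 1264, 328 and 246 counts. The SAGA genes thus had no common highest library. Supt3 and Taf6l were the lowest. Of 12 matched genes for TBP-associated factors of TFIID, 8 had at least 10 CPM. Taf3 (22.3 ± 10.7 RPKM) and Taf1 (17.2 ± 5.4 RPKM) were the highest and Taf8 (0.45 ± 0.40 RPKM) the lowest, against 3.2 ± 2.2 RPKM for Tbp.

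Genes in which a noncoding repeat expands were also detected in each library. Atxn10, needed for survival of cerebellar neurons, had 149, 176 and 161 CPM (162 ± 13.5 CPM; SD, n = 3) and at 83.5 ± 7.0 RPKM was close to Atn1 per exon length. Nop56, a core protein of the particles that methylate ribosomal RNA, had 122, 99.8 and 104 CPM (109 ± 11.9 CPM). Annotated copies such as Gm9432 share 37.6% of the 50-base stretches of the Nop56 transcript, and reads that align to more than 1 place were not counted. Ppp2r2b, a brain regulatory subunit of protein phosphatase PP2A, had 29.9, 47.4 and 17.2 CPM (31.5 ± 15.2 CPM), with replicate 2 the highest. Nop56, at 26.6 ± 2.9 RPKM, lay above all 3 of its measured partners with an exon length, Nop58 (3.5 ± 2.5 RPKM), Fbl (27, 17 and 1 counts) and Rrp9. Nhp2l1, a further partner with no matched exon length, was at 32.4 ± 37.7 CPM. Among the 7 other PP2A genes, all with at least 10 CPM, Ppp2r2c, another brain regulatory subunit, had 98.8 ± 34.3 RPKM and the scaffold gene Ppp2r1a 50.6 ± 8.9 RPKM, against 7.9 ± 3.8 RPKM for Ppp2r2b, while Ppp2r2d was the lowest at 3.7 ± 2.6 RPKM.

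The ligand, a receptor and the adaptor of reelin signalling were all at 100 CPM or more. Reln, the secreted ligand, made in the cerebellum mainly by granule cells, had 278, 329 and 446 CPM (351 ± 86.2 CPM; SD, n = 3), lowest in replicate 1 and highest in replicate 3. Vldlr, one of its receptors, had 109, 153 and 121 CPM (128 ± 23.1 CPM), with replicate 2 the highest. Dab1, the adaptor that is phosphorylated in the receiving cell, had 156, 175 and 224 CPM (185 ± 34.8 CPM) and followed the same order of libraries as Reln. The 8 granule cell markers summed to 2991, 3598 and 3628 CPM, in the order of Reln. The 6 markers of astrocytes and Bergmann glia, at 2429, 2457 and 2790 CPM, had that order too. The part of either cell type in the level of Reln was not tested. All 8 further genes of the pathway had a mean of at least 10 CPM, against 58.2% of genes with at least 10 counts. The median of the 8 was 20.9 RPKM. The highest were Pafah1b1, which acts on the dynein motor (55.9 ± 3.4 RPKM), the small GTPase gene Rap1a (38.0 ± 2.6 RPKM) and the adaptor gene Crkl (22.1 ± 5.3 RPKM). The lowest was Src at 52, 25 and 174 counts, or 6.9, 2.8 and 22.3 CPM, so its mean passed 10 CPM through replicate 3. The exchange factor gene Rapgef1 had 844, 99 and 150 counts.

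Of the 4 DNA repair genes, Atm had a mean above the median of the 38 ataxia genes (51.4 CPM). Aptx, Tdp1 and Tdp2 lay below it. Atm, the kinase that signals double-strand breaks, had 98.6, 53.5 and 83.9 CPM (78.7 ± 23.0 CPM; SD, n = 3). Aptx, aprataxin, which removes AMP from stalled ligation ends, had 15, 131 and 360 counts, or 1.99, 14.9 and 46.2 CPM. Replicate 3 exceeded replicate 1 by 23.3 times, with a 95% counting interval of 13.9 to 42.0. Tdp1, which removes topoisomerase I from DNA, had 51, 3 and 49 counts, a ratio of highest to lowest CPM of 19.8 (6.41 to 99.3) that rests on the 3 counts of replicate 2. Tdp2, which does so for topoisomerase II, had 34, 39 and 38 counts (4.6 ± 0.2 CPM), with no library apart from the others. Of 10 further strand break repair genes, 5 had at least 10 CPM. The highest were Rad50 (21.1 ± 7.0 RPKM), Parp1 (11.7 ± 5.0 RPKM), the sensor of single-strand breaks, and Nbn (8.5 ± 7.1 RPKM). The ligase partner gene Xrcc4, among the lowest, had 16, 1 and 0 counts.

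The 3 genes of the inner mitochondrial membrane differed by level. Opa1, which fuses inner membranes, had 316, 310 and 419 CPM (349 ± 61.3 CPM; SD, n = 3), with replicate 3 above the other two. Afg3l2 and Spg7 encode the subunits of one protease of that membrane. Afg3l2 had 58.8, 137 and 23.9 CPM (73.3 ± 58.1 CPM), and replicate 2 exceeded replicate 3 by 5.75 times (4.93 to 6.75). Spg7, paraplegin, had 11.5, 13.2 and 5.1 CPM (9.9 ± 4.2 CPM), and it too was highest in replicate 2 and lowest in replicate 3. Afg3l1, another subunit gene of the mouse, had 11.9, 9.8 and 4.2 CPM (8.6 ± 4.0 CPM), highest in replicate 1 and lowest in replicate 3. Of the 9 further genes for mitochondrial membrane quality, 6 had at least 10 CPM. Dnm1l, which cuts mitochondria, led at 46.4 ± 5.8 RPKM, next to Opa1 at 44.3 ± 7.8 RPKM, followed by the outer membrane fusion gene Mfn2 with 2468, 730 and 598 counts. Phb2 and the protease gene Parl were the lowest.

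Genes of fatty acid elongation were present, and those of vitamin E handling were scarce. Elovl4, which makes very long-chain fatty acids, had 39.2, 56.3 and 22.7 CPM (39.4 ± 16.8 CPM; SD, n = 3). Elovl5, which elongates polyunsaturated fatty acids, had 47.3, 34.4 and 32.5 CPM (38.0 ± 8.0 CPM). Ttpa, the carrier of vitamin E known mainly from liver, had 35, 139 and 33 counts (8.2 ± 6.6 CPM), with replicate 2 highest. Mttp, which loads lipid onto lipoproteins in liver and gut, had 0, 33 and 3 counts. Replicate 2 was 9.43-fold higher than replicate 1 taken at its limit of 3 counts, a value without the counting error of the 33 counts. Exons of Trmt10a on the other strand cover 7.36% of the Mttp exons, and Trmt10a had 27, 96 and 4 counts. Of 10 further elongation genes, 7 had at least 10 CPM. Tecr, the reductase of the last step, was at 481 ± 116 RPKM, Hacd3 at 46.2 ± 27.7 RPKM and the elongase gene Elovl6 at 30.3 ± 7.5 RPKM. Elovl3 had no count in any library.

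Of the 3 folding and ubiquitin genes, 1 had a mean of at least 10 CPM and none a mean of at least 100 CPM. Over all gene rows the shares were 25.1% and 6.35%. Rnf216, a ubiquitin ligase, had 105, 25.99 and 91.9 CPM (74.2 ± 42.2 CPM; SD, n = 3), with replicate 2 the lowest by 4.03 times (3.47 to 4.69). Sil1, the exchange factor of the chaperone BiP, had 35, 0 and 22 counts. Replicate 1 was 13.6-fold higher than replicate 2 taken at its limit of 3 counts, a value without the counting error of the 35 counts. Stub1, which encodes the ligase CHIP, had 0, 10 and 8 counts. Its exons are covered over 42.3% of their length by exons of Jmjd8 on the other strand. The limit given above for Tbp and Pdcd2 therefore applies to its counts, which may stand for part of the gene. Jmjd8 had 51, 1 and 0 counts. All 6 genes of a list of chaperones and partners had at least 10 CPM. The highest were Hsp90ab1 at 481 ± 10.6 RPKM, Hspa8 at 311 ± 41.5 RPKM and Hsp90aa1 at 226 ± 14.2 RPKM. Hspa5, which encodes BiP, was lower at 30.2 ± 12.6 RPKM.

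In CPM, the 4 highest ataxia genes were Syne1, Fat2, Atxn2 (above) and Ttbk2. Syne1 (chromosome 10, from 5020917 to 5551482 on the minus strand of mm10, with a longest coding transcript of 146 exons), which encodes the nuclear envelope scaffold nesprin-1, had 1501, 1470 and 1489 CPM (1486 ± 16.01 CPM; SD, n = 3), and ranked 48th, 61st and 63rd of all 32531 gene rows. With 40491 exon bases, it had 36.7 ± 0.4 RPKM, below Atn1, Atxn10, Ttbk2, Fat2, Atxn2l, Opa1 and Atxn2. With the longest coding transcript as length it had 53.3 ± 0.6 RPKM, and Atxn2, Opa1, Atn1 and Atxn10 were the 4 highest ataxia genes. Fat2 (chromosome 11, from 55250609 to 55336564 on the minus strand), a giant cadherin of granule cells, had 780, 782 and 676 CPM, ranking 168th, 167th and 197th. Ttbk2 (chromosome 2, from 120732816 to 120850604 on the minus strand), a kinase that starts the growth of cilia, had 825, 532 and 478 CPM (612 ± 187 CPM), with replicate 1 the highest. Exons of Cdan1 on the same strand cover 29.9% of the Ttbk2 exons, and Cdan1 was at 19, 67 and 160 counts.

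Relatives of these genes were lower or close. Fat1, at 39.3 ± 3.2 RPKM, was next to Fat2 at 51.4 ± 4.2 RPKM, while Fat3 (9.6 ± 2.2 RPKM) and Fat4 (1.7 ± 1.1 RPKM) were lower. Sun2, whose product anchors nesprins in the inner nuclear membrane, was at 11.1 ± 2.0 RPKM, the second large nesprin gene Syne2 at 3.2 ± 1.2 RPKM and Sun1 at 4, 216 and 143 counts, all under Syne1 per exon length, and Syne3 was at 0.3 ± 0.5 CPM. Ttbk1, the neuronal paralog of Ttbk2, had 1108, 326 and 212 counts, highest in replicate 1 as for Ttbk2, and at 5.0 ± 4.7 RPKM it lay below the 53.6 ± 16.4 RPKM of Ttbk2.

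Of the remaining genes, Wwox and Ccdc88c exceeded a mean of 10 CPM. Ccdc88c, a regulator of Wnt signalling, had 25.9, 7.6 and 10.01 CPM (14.5 ± 9.97 CPM; SD, n = 3). Ano10, a membrane protein of the anoctamin family, had 4, 18 and 58 counts, or a ratio of 14.1 between replicates 3 and 1 (5.203 to 53.3). Plekhg4, which encodes a putative exchange factor for small GTPases, had 1, 0 and 0 counts, and Tgm6, a transglutaminase, had none in any library. Of the 6 other transglutaminase genes, Tgm2 (44, 246 and 34 counts) and Tgm5 (11, 0 and 55 counts) had counts and 4 had none. Wwox, an oxidoreductase-like protein with WW domains, had 48.7, 20.996 and 74.8 CPM (48.2 ± 26.9 CPM), and Cwf19l1, related to a splicing factor of yeast, had 130, 23 and 54 counts (8.9 ± 7.5 CPM).

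**Figure D2:**
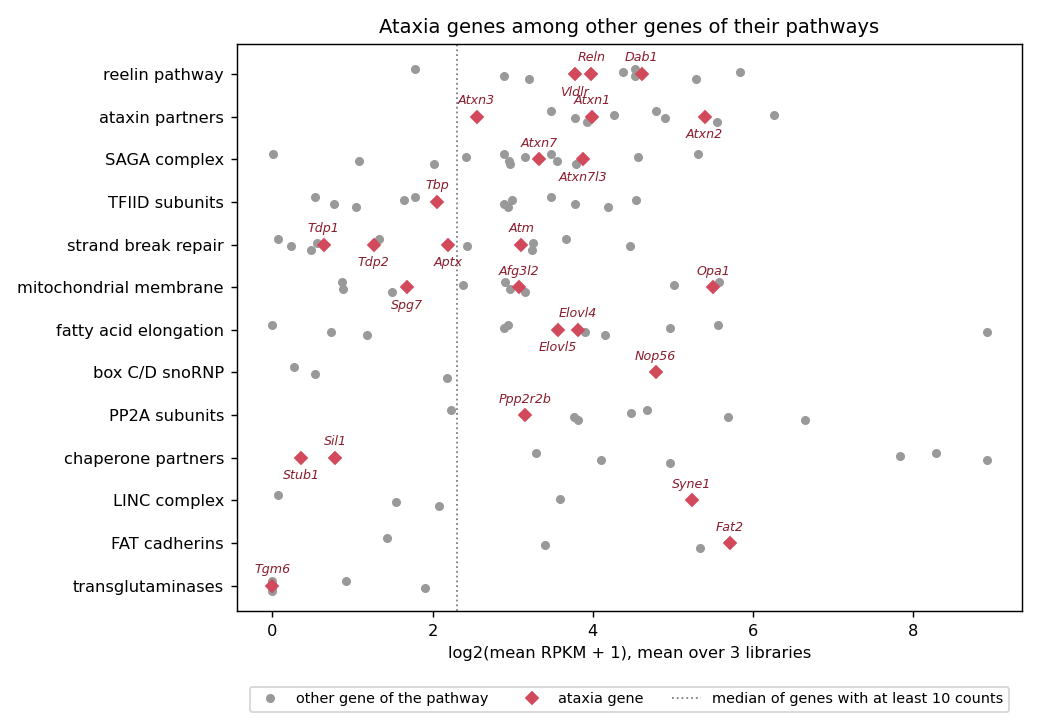
Mean level over 3 libraries, as log2(RPKM + 1), of ataxia genes (red diamonds) and of the other genes in 13 of the pathway lists (grey points), with the median of all genes with at least 10 counts as a dotted line. Nop56, Syne1 and Fat2 lie at the upper end of their rows, and Tgm6, Stub1 and Sil1 at the lower end.

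The spread between libraries was small for abundant ataxia genes and large for scarce ones. Of the 38 genes, 34 had at least 10 counts in 2 or more libraries and were tested. Of these, 32 varied beyond counting error by a Poisson chi-square test with Benjamini-Hochberg adjustment over all tested genes, at an adjusted p under 0.05. The same held for 96.5% of the 11168 genes tested, so the share among the ataxia genes was near that of all genes. The 2 others were Syne1 (adjusted p = 0.246) and Tdp2 (adjusted p = 0.904). For Syne1 this rests on 11340 to 12948 counts, and its highest library exceeded the lowest by 1.02 times with a counting interval of 0.996 to 1.05. For Tdp2, with 34 to 39 counts, the interval of the same ratio was 0.686 to 1.77, so a difference of that size was not detectable at this depth.

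Among the 13 ataxia genes with at least 100 CPM, the median coefficient of variation (CV) was 18.1%, against 25.4% for the 2067 genes at that level. None of the 13 had a highest library 2 times or more above the lowest, which 28.5% of the 2067 genes had. Among the 21 tested ataxia genes of lower level, the median CV was 56.9%, against 66.05% for all such genes. The highest CV of a tested gene was that of Ano10 (109%), followed by Aptx (108%), and the lowest were those of Syne1 (1.08%), Tdp2 (5.24%) and Fat2 (8.17%). The libraries in which the 34 tested genes were highest were replicate 1 for 13, replicate 2 for 12 and replicate 3 for 9, against 35.2%, 32.6% and 32.2% of all tested genes. No ataxia gene was called more variable than genes of its own level by edgeR's quasi-likelihood dispersion with Benjamini-Hochberg adjustment, but this test called no gene at all and missed most of the large changes put into simulated data, so it says little about ordinary variability. None was called at an unadjusted p under 0.05 either, by edgeR or by limma, while 0% of all genes tested passed the adjusted and 4.27% the unadjusted threshold in edgeR (0% and 4.67% in limma). The largest dispersions over the trend were those of Afg3l2 (3.03), Aptx (2.68) and Atxn7 (2.60).

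**Figure D3:**
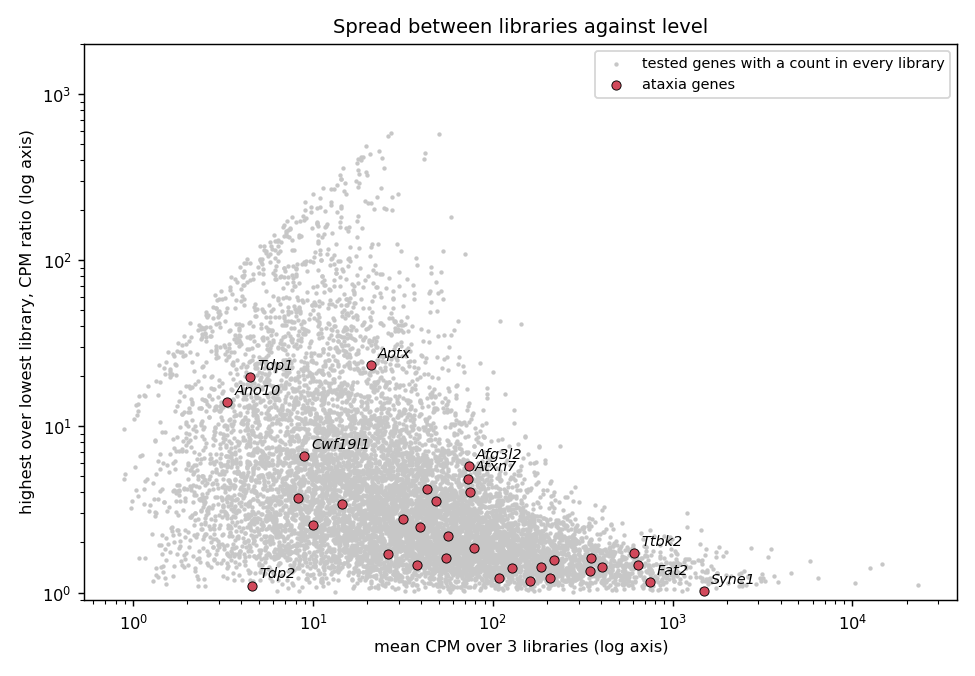
Ratio of the highest to the lowest library in CPM against mean CPM (both axes log) for tested genes with a count in every library (grey) and for the ataxia genes among them (red). The ratio is 1.02 for Syne1 and 1.10 for Tdp2, and 23.3 for Aptx, the widest of the ataxia genes shown.

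Levels were compared per exon length within each library for 8 pairs of related or interacting ataxia genes. With 3 libraries an exact permutation test that flips signs (two-sided) gives no p below 0.25, so no pair could pass a threshold of 0.05 and sizes were read against the SD, with no adjusted values. Atxn1l was lower than Atxn1 by -0.97 ± 0.40 on the log2(RPKM + 1) scale (SD, n = 3; exact p = 0.25), in 3 of 3 libraries. Spg7 was lower than Afg3l2 by -1.19 ± 0.65 (exact p = 0.25), also in 3 of 3, with 2.2 ± 0.9 RPKM against 7.4 ± 5.9. Neither sign changed under any of the 6 alternatives of each pair, but the sizes did. With the longest coding transcript as length they were -2.73 and -2.23, and with CPM -1.93 and -2.52. Dab1 was above Reln by 0.64 ± 0.07 (exact p = 0.25), with differences of 0.71, 0.64 and 0.56 in the 3 libraries, the smallest SD of the 8. Per read, without a length, that sign turned, since the Reln exons are longer (23738 against 7908 bases), and with the longest coding transcript as length it was 0.23 ± 0.08.

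The other pairs did not separate beyond their spread or depended on the length used. Atxn2l exceeded Atxn2 by 0.15 ± 0.14 (SD, n = 3; exact p = 0.25) and Atxn7l3 exceeded Atxn7 by 0.70 ± 0.63 (exact p = 0.25) with exon lengths of the whole gene. With the length of the longest coding transcript these differences became -1.34 and -0.46, so the data do not fix their order. Tdp2 exceeded Tdp1 by 0.67 ± 0.44 (exact p = 0.25), with 1.17 in replicate 2, where Tdp1 had 3 counts, and a mean of 0.42 without that library. With the longest coding transcript as length it was 0.29 ± 1.04 (exact p = 1) and with CPM 0.40 ± 1.40 (exact p = 1), within the SD. The difference of Elovl4 minus Elovl5 was 0.18 ± 0.60 (exact p = 1), and that of Vldlr minus Reln was -0.19 ± 0.38 (exact p = 0.75), both within the SD and without a common sign. For Vldlr minus Reln the longest coding transcript gave -0.85 ± 0.39 and CPM gave -1.44 ± 0.40 (exact p = 0.25 for both), beyond the SD. Elovl4 minus Elovl5 was -0.16 without replicate 2, and Vldlr minus Reln was 0.0115 without replicate 3.

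**Figure D4:**
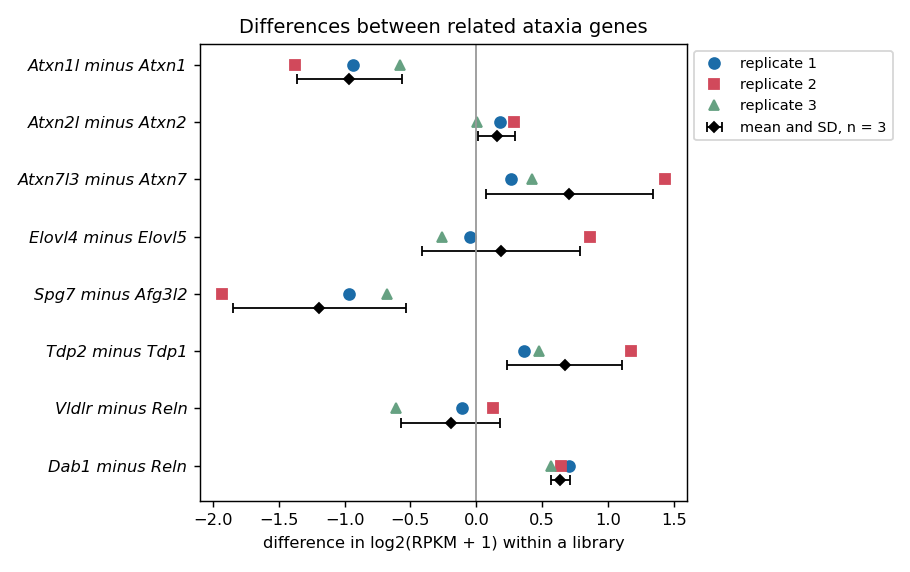
Difference in log2(RPKM + 1) within a library for 8 pairs of ataxia genes, with 1 point per replicate and the mean ± SD over 3 libraries below them. The points of Atxn1l minus Atxn1 and of Spg7 minus Afg3l2 all lie under 0, those of Dab1 minus Reln lie close together above 0, and those of Elovl4 minus Elovl5 and Vldlr minus Reln fall on both sides of 0.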

How the data were processed

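Each deposited table holds the raw read counts of 1 library by gene symbol. STAR 2.0.0e, HTSeq and the build mm10 are named in the submitters' processing notes. Which annotation and strand setting were used is not given in the sources used here. Summary rows were left out: reads on no feature made up 44.1% to 50.2% of counted reads and reads on several genes 1.77% to 1.94%. The files differ in depth from 7622010 to 8842058 gene counts, and intervals and limits cover counting error only, since no molecular identifiers are given.

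CPM used library sizes scaled by TMM (edgeR 4.0.16, R 4.3.3). RPKM used exon union lengths from GENCODE M21, matched by symbol (23113 symbols). A pseudocount of 1 was added before logs, so folds of low genes are understated. Genes with at least 10 counts in 2 libraries were tested with a Poisson chi-square test and with edgeR's quasi-likelihood dispersion over its trend, both with Benjamini-Hochberg adjustment, and both were tested on simulated data. Overlaps were computed with exons of other genes in the files, and shared 50-base stretches with all annotated transcripts. Alternatives were DESeq2 1.42.0 size factors, unscaled sizes, other filters, a pseudocount of 0.1, robust estimation, limma 3.58.1, other lengths and leaving out each library. The 38 genes and the lists were chosen with earlier results of these data known. All 38 may be named. Of each other list, the 3 highest and 2 lowest per exon length are named, or all of 4 or fewer. Genes that overlap or share stretches with an ataxia gene, Afg3l1 and Hspa5 were named after their values were seen, as were the marker genes at 0. A few genes and 1 sequence that these rules cover are not reported here.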

Additional observations from a re-analysis of the deposited data

How the results depend on the processing

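No paired analysis was possible because all 3 libraries belong to 1 group. The summed level of the 38 genes was 6211 to 6374 CPM when 1 library was left out, against 6318 with all. The count at 10 CPM or more stayed between 25 and 28 under every alternative run, and the count varying beyond counting error between 24 and 34. That count was 24 to 26 with 1 library left out (77.4% to 81.2% of those tested, against 80.5% to 82.2% of all genes tested) and 34 of 37 with no filter (91.9% against 88.7%). No ataxia gene passed edgeR's test of dispersion under any alternative, limma included, but these called only 0 to 20 of all genes; at an unadjusted p under 0.05, Afg3l2 passed without replicate 1, Aptx without replicate 2 and Atxn7 without replicate 3, where 4.52%, 3.85% and 4.18% of all genes tested passed. Of the 8 pairs, 5 changed sign somewhere. With CPM in place of RPKM, Atxn2l minus Atxn2 was -1.55, Atxn7l3 minus Atxn7 was -0.15, Elovl4 minus Elovl5 was -0.022 and Dab1 minus Reln was -0.91. With the longest coding transcript as length, the first 3 were -1.34, -0.46 and -0.12. Elovl4 minus Elovl5 ranged from -0.16 to 0.41 and Vldlr minus Reln from -0.36 to 0.0115 when 1 library was left out. The longer exon union of genes with many transcripts, as for Atxn2 (15689 bases against 4472 in its longest coding transcript), is part of the RPKM values. Genes under about 50 counts, such as Tdp1, Sil1, Stub1 and Mttp, are limited by depth.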
